A study of Mus musculus with 4 samples.

Results

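Tal1 and Gata1 were called together at 472 positions of the mouse genome where no Ldb1 site was called. They come from chromatin immunoprecipitation followed by sequencing (ChIP-seq) of total mouse bone marrow, in which Ldb1, Scl/Tal1 (written Tal1 here) and Gata1 were each pulled down once and an IgG antibody served once as the control. The study asked what complexes built on Ldb1 do in the activation of erythroid genes. The cells were freshly isolated, fixed with formaldehyde and sonicated, and the labels name no strain, age, genotype or number of animals. To find the positions, the authors' site lists for chromosomes 1 to 19 were pooled, and site centres at most 200 bp apart were chained into places. A place was kept if it held at least 1 Tal1 and 1 Gata1 site and no Ldb1 site. The 472 places kept were 4.96% of 9522 places, and 17.3% (exact Clopper-Pearson 95% interval 15.9 to 18.8) of the 2721 places with both Tal1 and Gata1. At the other 2249 of these, Ldb1 was called as well. An Ldb1 site lay within 1000 bp of the centre of 54 of the 472 places, called Ldb1-flanked below. The other 418 are called Ldb1-distant.

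Ldb1 is an adaptor that binds no DNA itself. In erythroid cells it is known to join, through the LIM-only protein Lmo2, complexes that hold Tal1, which reads E-boxes through its helix-loop-helix domain together with an E-protein partner, and Gata1, a zinc finger factor that binds GATA motifs. Ldb1 molecules bind each other, which can bring distant enhancers and promoters together. Gata1 is made in erythroid cells, megakaryocytes, mast cells and eosinophils, and Tal1 in erythroid cells, megakaryocytes and early blood progenitors. Total bone marrow holds all of these among many cells that make neither. A lower level in such a mixture can mean fewer cells with the protein on the DNA or less of it per cell, and these cannot be told apart. The labelled tissue could not be checked against marker genes, because the files hold positions and not expression.

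The places were chosen by the tags of all 4 libraries, through the authors' calls of each antibody against IgG, so the levels below are descriptions and none was tested. No library was replicated, and intervals cover counting error only. How well each antibody pulls down its protein was not measured, so equal levels of different antibodies need not mean equal binding. The libraries held 5767555 to 7873298 tags. IgG tags were 36 bases long and those of the antibodies 25 bases, so the control differs from the antibody libraries in more than the antibody. Positions are on the assembly mm8. Genes and DNA sequence at these positions were not analysed here.

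Ldb1 tags were present at the Ldb1-distant places without a called site. The level of a library at a place was its number of tags within 250 bp of the centre per 1000000 tags of the library (RPM). Across the 418 Ldb1-distant places, Ldb1 ranged from 0 to 4.71 RPM with a median of 1.73 and a mean of 1.71 ± 0.766 (SD over places). IgG ranged from 0 to 2.15 RPM with a median of 0.403 and a mean of 0.429 ± 0.336. Ldb1 lay above IgG at 393 of the 418 places (94.0%, 91.3 to 96.1). Over all 9522 places, called Ldb1 sites included, this share was 95.6%. With no Ldb1 site within 1000 bp, it was 89.4% at places of only Tal1 and 89.9% at places of only Gata1. The ranges of the 2 libraries overlapped. Summed over the places, Ldb1 stood at 3.99 times IgG (3.75 to 4.24). Per base, Ldb1 tags within 250 bp were 4.12 times (3.99 to 4.27) as dense as in the library's own flank, between 2 and 5 kb from the place on either side. IgG tags were 1.80 times (1.70 to 1.91) as dense as in their flank, and the part of this in the Ldb1 level was not tested.

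Tal1, which with Gata1 defined these places, had a median of 3.99 RPM at the Ldb1-distant places (range 1.73 to 17.3). Its summed level was 10.2 times IgG (9.63 to 10.8). Gata1 had a median of 3.05 RPM (1.52 to 20.4) and a summed level of 7.74 times IgG (7.31 to 8.20). These folds depended on the window. Tal1 stood at 17.9 times IgG within 100 bp and at 6.28 times within 500 bp, and Gata1 at 11.7 and 5.23 times. Tal1 lay above Gata1 at 307 of the 418 places (73.4%). Ldb1 lay above Tal1 at 14 places (3.35%) and above Gata1 at 39 (9.33%). Over all 9522 places these 3 shares were 63.1%, 41.6% and 58.0% in this order. With no Ldb1 site within 1000 bp, Ldb1 lay above Tal1 at 2.57% of places of only Tal1. It lay above Gata1 at 5.26% of such places of only Gata1. Scaled by library size, the Ldb1-distant places carried 0.392 Ldb1 tags for each Tal1 tag (0.378 to 0.405) and 0.516 for each Gata1 tag (0.498 to 0.534).

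**Figure D1:**
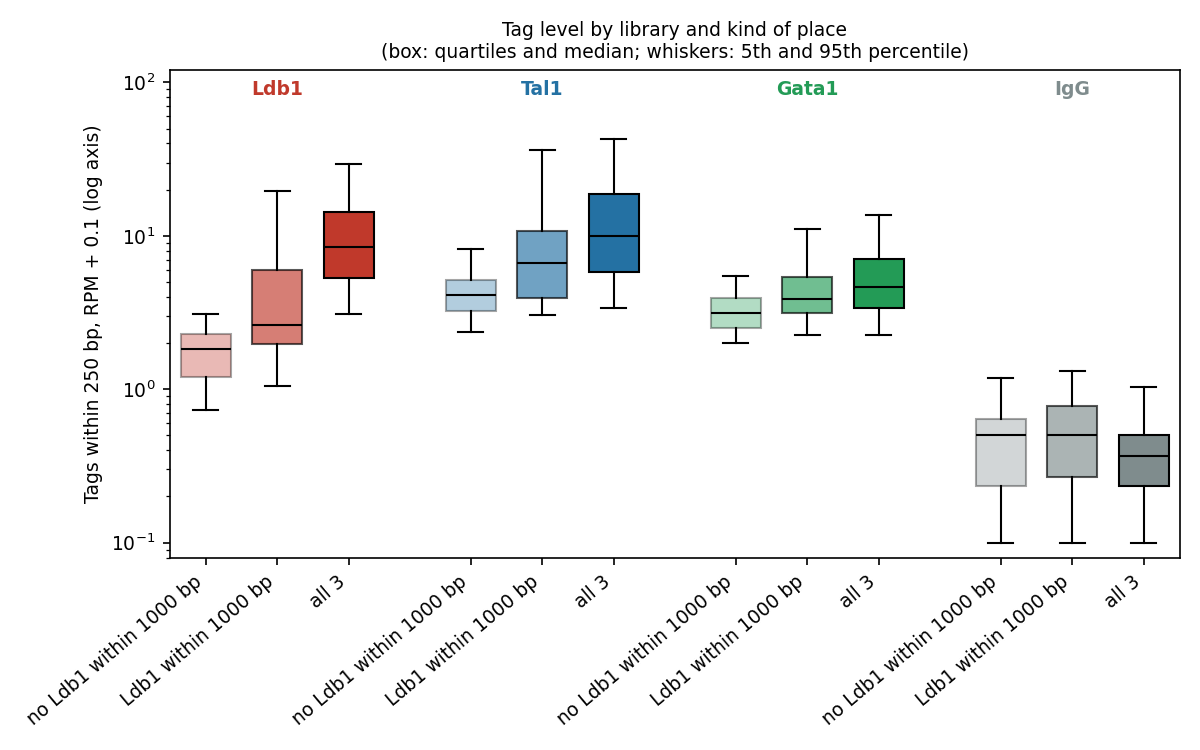
Tags within 250 bp of the place centre, in RPM plus 0.1 on a log axis, for each library at Ldb1-distant places (n = 418), Ldb1-flanked places (n = 54) and places of all 3 antibodies (n = 2249). Boxes give quartiles and the median and whiskers the 5th and 95th percentile. The Ldb1 median is 1.73, 2.51 and 8.32 RPM in this order before the 0.1 is added, while the IgG boxes overlap.

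At places of all 3 antibodies the levels were higher for each antibody and lower for IgG. The median there was 8.32 RPM for Ldb1, 9.88 for Tal1 and 4.57 for Gata1, and IgG had a mean of 0.319 RPM. The mean Ldb1 level at Ldb1-distant places was 15.2% (14.7 to 15.6) of that at places of all 3. The corresponding share was 29.8% (29.2 to 30.4) for Tal1 and 57.5% (56.4 to 58.7) for Gata1. By medians the shares were higher, at 20.8% for Ldb1, 40.4% for Tal1 and 66.7% for Gata1. Ldb1 had the lowest share of the 3 by both measures, which the choice of places by Ldb1 calls favours. Duplicates count in these levels, and 71.6% of Ldb1 tags were distinct at Ldb1-distant places against 58.3% at places of all 3. Per Tal1 tag, places of all 3 carried 0.769 Ldb1 tags (0.764 to 0.774), and per Gata1 tag 1.96 (1.94 to 1.97).

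Ldb1 tags were also found at places where only Tal1 or only Gata1 was called. At the 1362 places of Tal1 alone with no Ldb1 site within 1000 bp, Ldb1 had a median of 1.41 RPM and stood at 2.92 times IgG (2.82 to 3.01). At the 2245 such places of Gata1 alone it had a median of 1.26 RPM and stood at 3.17 times IgG (3.08 to 3.26). Ldb1 was 3.44 times (3.37 to 3.50) as dense as in its flank at the former and 3.37 times (3.32 to 3.43) at the latter, against 4.12 times where Tal1 and Gata1 were both called. The counting intervals do not overlap, but they hold no spread between libraries. The IgG mean was 0.520 RPM at these places of Tal1 alone and 0.396 at those of Gata1 alone, against 0.429 at the Ldb1-distant places, and the part of IgG in these folds was not tested. Places of Tal1 alone carried 0.386 Ldb1 tags per Tal1 tag (0.378 to 0.394), an interval that overlaps that of the Ldb1-distant places. Those of Gata1 alone carried 0.424 Ldb1 tags per Gata1 tag (0.417 to 0.432), under the 0.516 (0.498 to 0.534) of the Ldb1-distant places.

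A fixed limit on the fold at each place counts them in another way. Ldb1 was at least 3 times IgG, with IgG set to at least 3 tags, at 240 of the 418 Ldb1-distant places (57.4%, 52.5 to 62.2) and at 36 of the 54 Ldb1-flanked ones. Over all 9522 places, called places of Ldb1 included, this share was 72.1%. It was 39.0% at the distant places of Tal1 alone, 36.6% at those of Gata1 alone and 99.5% at places of all 3. Tal1 passed the same limit at 404 of the 418 places (background 76.4%) and Gata1 at 398 (background 76.5%). The rule used these libraries, so the shares carry no test.

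**Figure D2:**
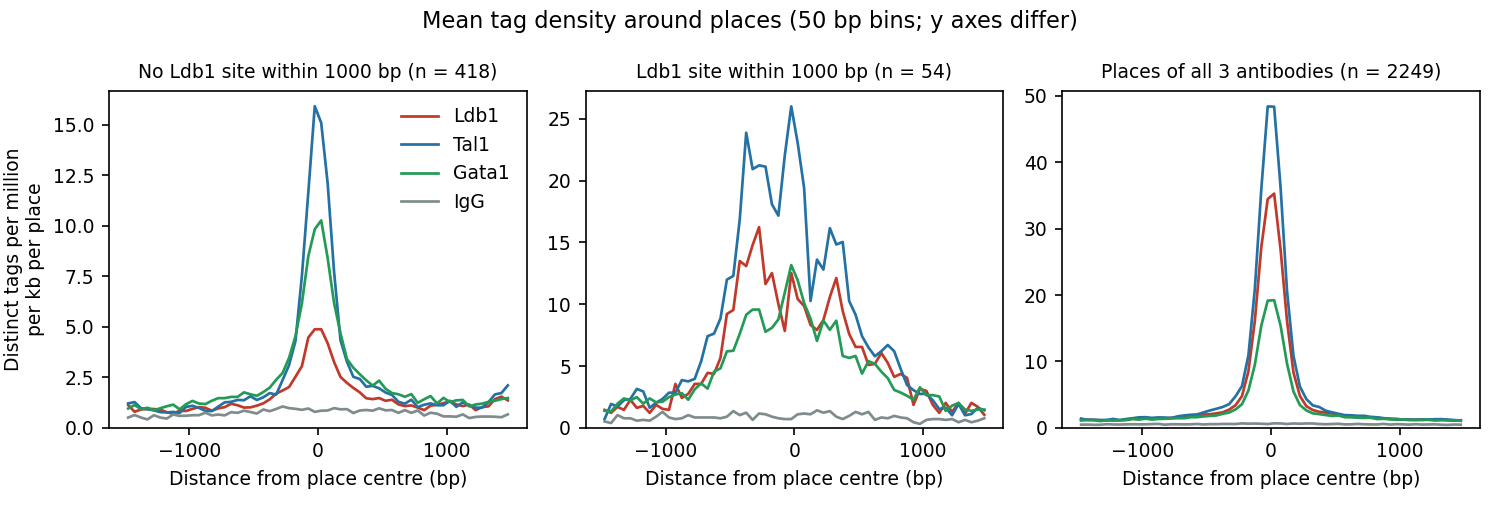
Mean density of distinct tags in 50 bp bins (RPM of distinct tags, per kb and per place) against distance from the place centre. At Ldb1-distant places Ldb1 forms a low central peak of 4.88 under Tal1 (15.9) and Gata1 (10.3), while IgG stays at or under 1.06; the y axes differ between panels.

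The Ldb1 tags at Ldb1-distant places were centred on them. In 50 bp bins of distinct tags (1 per position and strand), Ldb1 density over the central 100 bp was 4.71 times that 1000 to 1500 bp away. The same ratio was 13.6 for Tal1, 8.70 for Gata1 and 1.47 for IgG. At places of all 3 it was 28.9 for Ldb1. Around a bound protein, tags on the plus strand gather upstream and those on the minus strand downstream. Of the distinct Ldb1 tags within 250 bp, 60.1% (58.4 to 61.8) lay this way. The share was 68.7% for Tal1, 64.8% for Gata1 and 40.6% (37.6 to 43.5) for IgG. At places of all 3 it was 74.2% for Ldb1 and 49.1% for IgG. For Ldb1 it was 62.1% (61.1 to 63.1) at the distant places of Tal1 alone and 57.4% (56.5 to 58.2) at those of Gata1 alone, on either side of the value at the Ldb1-distant places.

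At some Ldb1-distant places the Ldb1 tags within 250 bp met part of what the caller asks of an Ldb1 site. SISSRs, the authors' site caller, required 9 tags for Ldb1, 8 for Tal1 and 11 for Gata1, with at least 2 directional tags on each side. Its calls also used a p setting of 0.001 with IgG as background, which was not applied in the counts below. The number of distinct Ldb1 tags within 250 bp had a median of 8 (quartiles 6 and 10, range 0 to 23). It reached 9 at 167 of the 418 places (39.95%, 35.2 to 44.8), and 118 places (28.2%, 23.96 to 32.8) also had at least 2 plus tags upstream and 2 minus tags downstream of the centre. Over all 9522 places, called Ldb1 sites included, 65.8% reached 9 and 60.8% met both. At the distant places of Tal1 alone these shares were 26.5% and 18.5%, and at those of Gata1 alone 18.4% and 12.03%. No IgG count reached 9 at the Ldb1-distant places, which allows a share of up to 0.879% (exact upper limit). IgG reached 9 at 2.13% of the distant places of Tal1 alone and at 0.356% of those of Gata1 alone. The window of 250 bp is not that of the caller, so reaching 9 here is not a missed call. With a window of 100 bp the Ldb1 count reached 9 at 4.31% of the Ldb1-distant places, and with 500 bp at 74.9%. At places of all 3 the number of distinct Ldb1 tags ran from 9 to 222 with a median of 33. No such place was at or under the Ldb1-distant median of 8, which largely follows from the caller's minimum of 9 for a called Ldb1 site. At 685 places of all 3 (30.5%) the number was at or under 23, the highest value of the Ldb1-distant places.

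**Figure D3:**
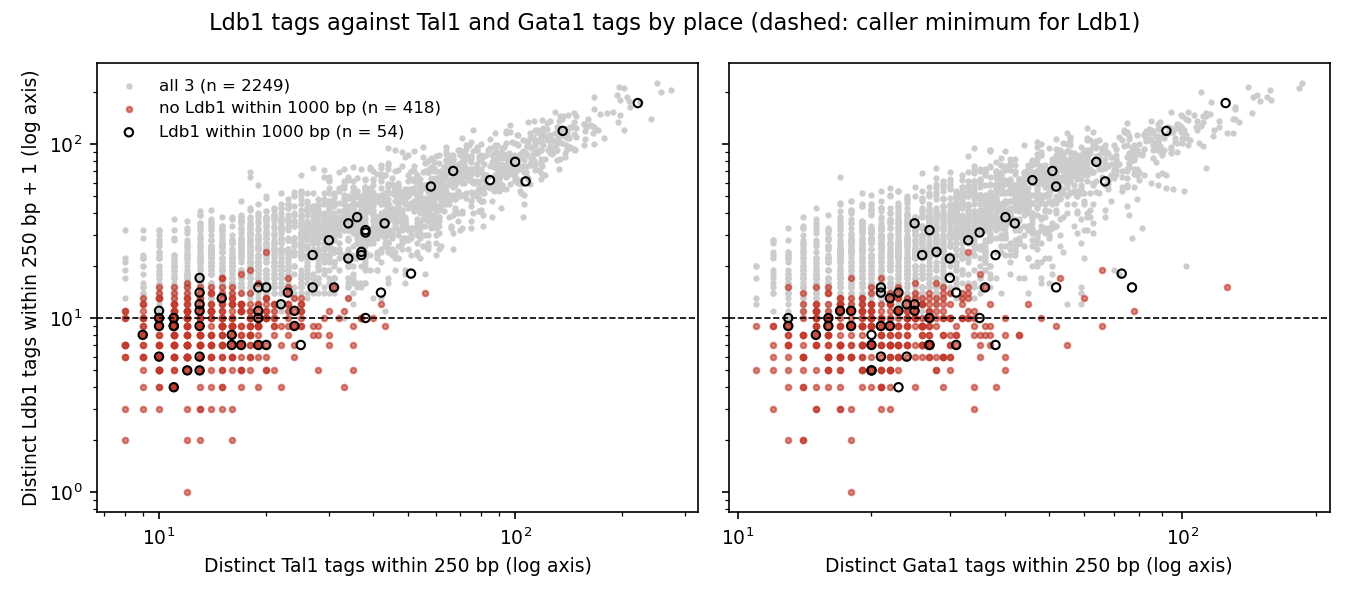
Distinct Ldb1 tags plus 1 against distinct Tal1 tags (left) and Gata1 tags (right) within 250 bp, both on log axes, 1 point per place. Ldb1-distant places (red) lie around the caller minimum of 9 tags (dashed), under most of the 2249 places of all 3 (grey), and a few Ldb1-flanked places (black rings) lie among the strongest of the grey points.

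The Tal1 and Gata1 sites had fewer of the caller's tags than those at places of all 3. The caller's tag number, a value the authors deposited and which ranks sites only within a list, had a median of 10 for Tal1 and 15 for Gata1 at Ldb1-distant places, against 25 and 24 at places of all 3. The median percentile of the Ldb1-distant sites was 33.0 in the Tal1 list and 44.8 in the Gata1 list. At distant places of a single factor the median tag number was 9 for Tal1 alone and 13 for Gata1 alone. Both sites were in the upper 50% of their lists at 46 of the 418 places (95% interval 8.17% to 14.4%), against 71.9% of places of all 3. Both were in the upper 10% at none of the 418 (upper limit 0.879%), against 15.9% of places of all 3. The Tal1 site sat at the caller's minimum in 105 cases (25.1%) and the Gata1 site in 48 (11.5%). At places of all 3 these shares were 3.69% and 3.78%.

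How often Ldb1 was missing went with the Tal1 level. Among places of Tal1 and Gata1, the share without an Ldb1 site was 54.5% (47.5 to 61.4) where the window held 8 to 11 distinct Tal1 tags. It was 41.1% (36.2 to 46.1) at 12 to 15 tags, 23.3% (19.9 to 27.0) at 16 to 23 and 6.80% (5.14 to 8.81) at 24 to 47. At 48 tags or more it was 1.18% (0.541 to 2.23), or 9 of 762 places, 1 of them Ldb1-distant. By Gata1 the share was flat at first, 30.5% at 11 to 15 and at 16 to 23 distinct tags, and it was 3.36% (2.01 to 5.27) at 48 tags or more. At Ldb1-distant places the Ldb1 count varied little over the classes of Tal1. Its median was 7, 8, 8 and 8.5 distinct tags in the 4 lower classes of Tal1, the last from 36 places, and 17, 18, 22 and 33 at places of all 3 in the same classes. Over the 5 classes of Gata1 the Ldb1 median at Ldb1-distant places was 7, 8, 8, 9 and 10 distinct tags, the last from 9 places. The mean went from 1.57 to 2.49 RPM while that of IgG went from 0.258 to 0.672, and the Ldb1 fold was 6.09 in the lowest class, 3.32 in the middle one and 3.71 in the highest. Within a class of Tal1 the 2 kinds of place still differed in Ldb1, by which they were chosen.

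**Figure D4:**
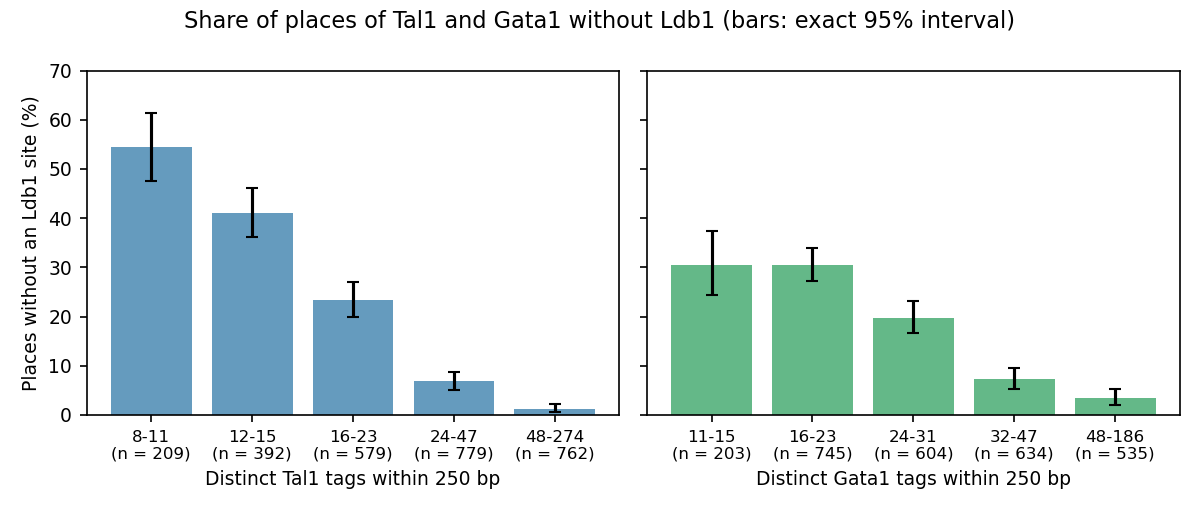
Share of places of Tal1 and Gata1 that held no Ldb1 site, by the number of distinct Tal1 tags (left) or Gata1 tags (right) within 250 bp, with exact 95% intervals; n is the number of places in each class. The share runs from 54.5% to 1.18% over the classes of Tal1 and from 30.5% to 3.36% over those of Gata1.

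Across the 418 Ldb1-distant places, log2 of the distinct tags plus 1 gave a Pearson r of 0.205 for Ldb1 with Tal1 (Spearman rho 0.208) and 0.234 for Ldb1 with Gata1 (0.192). Gata1 went more with IgG (0.372, rho 0.397) than Tal1 (0.126, rho 0.131) or Ldb1 (0.00482, rho -0.00261) did. At the 2249 places of all 3, r was 0.826 for Ldb1 with Tal1 and 0.203 for Gata1 with IgG. These are descriptions across places that share the 4 libraries, the counts are small, and the rule held the Ldb1-distant places to a narrow range of Ldb1.

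Tal1 and Gata1 centres lay close together. The median distance was 50 bp (quartiles 20 and 100) at the Ldb1-distant places and 30 bp (10 and 70) at places of all 3, where a chain through the Ldb1 site also allows more than 200 bp. The 2 centres were within 50 bp of each other at 51.0% (46.1 to 55.8) of Ldb1-distant places and at 67.0% (64.98 to 68.9) of places of all 3. At 116 Ldb1-distant places the centres were at least 100 bp apart, which allows tags to be assigned to either side. Here the tags' 5′ ends were moved inward by 0.5 of the caller's fragment length and counted within 50 bp of each centre. IgG has no such length, and its tags were moved by 108 bp, from the mean length of the 3 antibodies. Ldb1 had 215 tags at Tal1 and 202 at Gata1 centres (51.6% at Tal1, 46.6 to 56.4). Tal1 had 70.5% (67.5 to 73.4) and Gata1 41.9% (39.2 to 44.6) at the Tal1 centre, where each list's own tags had set the centres. IgG had 61.9% (52.5 to 70.7), from 118 tags in all, and its interval overlaps that of Ldb1, which includes 50%. At 305 places of all 3 the share at the Tal1 centre was 58.3% (57.3 to 59.3) for Ldb1 and 62.1% (55.97 to 68.0) for IgG.

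Ldb1-distant places were spread over all 19 chromosomes. The number of all 472 places ran from 15 on chromosomes 18 and 19 to 46 on chromosome 11. As a share of the places with Tal1 and Gata1, it ran from 12.9% (8.37 to 18.8) on chromosome 7 to 21.7% (16.2 to 28.1) on chromosome 5, with overlapping intervals. The nearest Ldb1 site was 1 to 5 kb away at 81 Ldb1-distant places, 5 to 20 kb at 83, 20 to 100 kb at 124 and over 100 kb at 130. The Ldb1 fold over IgG in these 4 classes was 4.35 (3.79 to 5.01), 3.85 (3.34 to 4.45), 4.02 (3.60 to 4.51) and 3.81 (3.41 to 4.27) in this order. The mean Ldb1 level was 1.89, 1.59, 1.76 and 1.63 RPM, highest in the nearest class, and a difference between classes was not tested. A place of all 3 lay within 20 kb of 111 Ldb1-distant places (26.6%, 22.4 to 31.1), against 22.3% (20.1 to 24.6) of distant places of Tal1 alone, 19.3% (17.7 to 21.0) of those of Gata1 alone and 35.9% (33.9 to 37.9) of places of all 3.

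Named Ldb1-distant places show the range. The 8 that ranked best by the mean of their Tal1 and Gata1 ranks in the caller's tag number had 1.26 to 4.40 Ldb1 RPM, 5.37 to 17.3 Tal1 RPM and 3.56 to 10.8 Gata1 RPM. The first, chr19:4961871-4962071, had 85 Tal1 and 36 Gata1 tags but 8 Ldb1 tags against 7 of IgG. Its Ldb1 fold was 1.33 (0.423 to 4.32), an interval that includes 1, and its nearest Ldb1 site was 27.2 kb away. At chr5:72838371-72838431 Tal1 reached 17.3 RPM, the highest of the 418, with 2.83 RPM of Ldb1, 3.56 of Gata1 and 0.807 of IgG. At chr12:100600531-100600651, 526 kb from an Ldb1 site, Tal1 had 10.6 RPM, Gata1 5.08, Ldb1 1.26 and IgG 0.134. The others of the 8 were chr14:60126891-60127091, chr2:38772571-38772631, chr14:22973031-22973111, chr14:54558051-54558311 and chr12:87705411-87705471.

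Ldb1 was highest at chr17:34608831-34609291, with 23 distinct tags and 4.71 RPM against 0.807 of IgG, a fold of 5.84 (2.39 to 17.2). Its Tal1 level was 4.33 RPM and its Gata1 level 4.32, so all 3 antibodies stood at nearly the same RPM. In distinct tags Ldb1 had 23, Tal1 20 and Gata1 33. Next came chr14:54558051-54558311 with 18 distinct Ldb1 tags and chr1:135894451-135895011 with 17. Among the 105 Ldb1-distant places with the best mean ranks, Ldb1 was lowest at chr3:123500231-123500351, which had 3 Ldb1 tags and 6 of IgG, a fold of 0.584 (0.0945 to 2.73), beside 25 Tal1 and 37 Gata1 tags. The next were chr8:83584051-83584231, with 4 Ldb1 tags beside 52 of Tal1 and 28 of Gata1, and chr17:52943851-52944151, with 3 Ldb1 tags. Both had 1 IgG tag, and the intervals of their Ldb1 folds, 4.67 (0.462 to 230) and 3.50 (0.281 to 184), included 1. At this depth, single places cannot show whether Ldb1 was absent.

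Another 2 places were chosen after their values were seen. At chr12:85662791-85662931 Gata1 had 126 distinct tags, the most of the Ldb1-distant places, and 20.4 RPM, while Tal1 had 5.90 and Ldb1 2.98. Its nearest Ldb1 site was 1555 bp away. The place chr17:55817591-55817711 was the only one of the 472 with no Ldb1 tag, which 3 tags of the library would bound at 0.471 RPM. IgG had 7 tags there, and Tal1 and Gata1 had 20 and 18.

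The 54 Ldb1-flanked places were a mixed group. Their nearest Ldb1 site was a median of 392.5 bp away (quartiles 286 and 512.5, range 220 to 965). It belonged to a place of all 3 in 26 cases, to one of Ldb1 and Tal1 in 12, to Ldb1 alone in 12 and to Ldb1 and Gata1 in 4. The Ldb1 site was nearer to the Tal1 centre in 22 cases and nearer to the Gata1 centre in 26. Ldb1 within 250 bp had a median of 2.51 RPM but a highest value of 49.0. Summed over the 54, Ldb1 stood at 11.9 times IgG (10.3 to 13.8), and at 6.94 times (5.95 to 8.14) without the 5 places with the most Ldb1 tags. The fold also depended on the chaining distance. Chaining at 100 bp left 125 flanked places with a fold of 25.4, and chaining at 500 bp left 9 with 2.92 (1.92 to 4.55), which is under the 3.93 of the distant places at that setting. Their median level of Tal1 was 6.50 RPM and that of Gata1 3.75.

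The Ldb1 level at Ldb1-flanked places went with the distance to the Ldb1 site. With that site 200 to 300 bp away (16 places), Ldb1 had a median of 7.77 RPM and the summed fold over IgG was 34.8 (25.8 to 47.9). At 300 to 500 bp (23 places) the median was 2.51 RPM and the fold 6.52 (5.27 to 8.14). At 500 to 1000 bp (15 places) they were 1.73 RPM and 3.36 (2.47 to 4.63), and this interval overlaps that of the Ldb1-distant places. Tags of an Ldb1 site less than about 250 bp away fall into the window, and so can part of those of a site farther off. At places of all 3, Ldb1 density was still 4.81 RPM per kb at 225 bp from the centre, against 1.21 at 1000 to 1500 bp. The part of such tags in each class of distance was not tested. The Tal1 median went the same way as that of Ldb1 over these classes, from 11.01 to 6.07 and 3.99 RPM, and the Gata1 median from 5.27 to 4.06 and 3.05.

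The 5 Ldb1-flanked places with the best mean ranks lay 230 to 865 bp from an Ldb1 site. At chr17:49486071-49486151, 230 bp from an Ldb1 site, Tal1 had 83.4 RPM, Ldb1 49.0 and Gata1 20.4, against 0.134 of IgG (1 tag). At chr4:135450011-135450271, at 245 bp, the levels were 49.1, 34.9 and 14.7 RPM. The place chr4:131348971-131349031, at 350 bp, had 36.1 RPM of Tal1, 16.3 of Ldb1 and 11.3 of Gata1. At chr9:108199031-108199171, at 245 bp, Ldb1 (17.1 RPM) nearly equalled Tal1 (17.3). At chr19:5844391-5844771 the Ldb1 site was 865 bp away, and Tal1 (18.2 RPM) and Gata1 (10.9) were high while Ldb1 had 3.30 and IgG 2.15, a fold of 1.53 (0.762 to 3.14).

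Places on either side of the 200 bp limit had Ldb1 levels of overlapping range. By distance from the place centre, the nearest that the limit left without Ldb1 were chr4:153004631-153005071, with an Ldb1 site at 220 bp and 7.38 RPM of Ldb1, the place on chromosome 17 given above and chr2:128988251-128988831, at 235 bp with 6.75 RPM. The limit itself acts on gaps between site centres, by which other places can be nearer. Of the places at 245 bp, Ldb1 had 34.9 RPM at chr4:135450011-135450271 and 2.36 RPM at chr4:133768831-133769231. Places of all 3 were ordered by the gap between sites, so the sides are on unlike measures. Among places of all 3, the largest gaps between the Ldb1 site and the nearest other site were 200 bp at chr5:115527891-115528351 and chr10:60808331-60808791 and 190 bp at chr5:140057131-140057651. Their Ldb1 levels were 19.2, 4.08 and 5.18 RPM. A gap over 100 bp was rare among places of all 3, at 63 of 2249, and the median gap was 20 bp.

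A low level of the factor that was not called was also seen at the other pairs. At the 433 places of Ldb1 and Gata1 with no Tal1 site within 1000 bp, Tal1 stood at 7.15 times IgG (6.66 to 7.69), and its mean was 13.5% (13.2 to 13.9) of that at places of all 3. IgG had a mean of 0.278 RPM there against 0.429 at the Ldb1-distant places. Over its own flank Tal1 was 4.95 times (4.79 to 5.12) as dense, against 4.12 times for Ldb1 at the Ldb1-distant places. At the 750 places of Ldb1 and Tal1 with no Gata1 site within 1000 bp, Gata1 stood at 4.55 times IgG (4.35 to 4.77) and had 31.6% (31.0 to 32.3) of its mean at places of all 3. The IgG mean at these was 0.401 RPM, and Gata1 was 4.91 times (4.80 to 5.02) as dense as in its flank. The 15.2% of Ldb1 at the Ldb1-distant places lay between these. By medians the shares were 19.3% for Tal1 and 36.1% for Gata1, and the 20.8% of Ldb1 again lay between them. The distinct tags of the uncalled factor reached its caller's minimum at 39.95% of the Ldb1-distant places, 40.6% (36.0 to 45.4) of the Ldb1 and Gata1 places and 55.6% (52.0 to 59.2) of the Ldb1 and Tal1 places. Over all 9522 places, called ones included, these shares were 65.8% for Ldb1, 66.3% for Tal1 and 78.2% for Gata1. At the distant places of Tal1 alone Gata1 reached its minimum at 51.2%, and at those of Gata1 alone Tal1 did so at 22.6%. The minima differ, at 9 tags for Ldb1, 8 for Tal1 and 11 for Gata1.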

How the data were processed

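The authors deposited aligned tags on mm8 for 4 ChIP-seq libraries and site lists for 3; the aligner is not given in the sources used here. The score column of the deposited tag files was not used. Its values ran from 4 to 53 for Gata1 and from 4 to 119 for IgG, and all were 0 for Ldb1 and Tal1. What this difference means for the levels was not tested. Sites were called with SISSRs 1.4 on each library with IgG as background, 1 tag per position, a p setting of 0.001 and an e-value of 10, per the file headers. The deposited lists give a count of tags, a fold and a p-value per site, all set by the authors' caller; only the tag count was used.

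Tags, counted as deposited, duplicates included, were placed by their centre. Distinct tags (1 per position and strand) numbered 4583315 (Ldb1), 3644976 (Tal1), 7004963 (Gata1) and 5748976 (IgG). Folds carry exact conditional 95% intervals and shares exact Clopper-Pearson ones. The tags carry no molecular identifiers, so copies of 1 molecule can count more than once. The code was tested on simulated data; it used scipy 1.17.1 and numpy 2.4.6 under Python 3.11.15.

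The places and measures were chosen with earlier results of these data known. Places named are the 8 Ldb1-distant and 5 Ldb1-flanked ones with the best mean rank of caller tags, the 3 distant ones with the most distinct Ldb1 tags, the 3 with the fewest among 105 best ranked, and up to 3 nearest the 200 bp limit on each side. Nearness to the limit was taken from the place centre for places without Ldb1, and from the gap between sites for places of all 3. The genes and sequence tables at hand are on another assembly and were not used.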

Additional observations from a re-analysis of the deposited data

How the results depend on the processing

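Of 95 values recomputed under alternatives, 50 stayed within the counting interval (within 1.5 times for a number of places) and 45 moved. All 69 folds over IgG stayed above 1. Of these, 46 were of Tal1 and Gata1, whose calls against IgG chose the places, so this outcome was set in advance for them. The others were of Ldb1, some of them at Ldb1-flanked places, which lie near a called Ldb1 site. Moving tags by 0.5 of the fragment length, measuring the distance to Ldb1 from the outer sites, and leaving out the 5 strongest Ldb1-flanked places were chosen after seeing the data. Values below are for Ldb1. Chaining at 100 bp gave a fold over IgG of 4.44 at Ldb1-distant and 25.4 at Ldb1-flanked places, with a median Tal1 to Gata1 distance of 40 bp; chaining at 500 bp gave 2.92 at Ldb1-flanked places and 70 bp, with 125 and 9 flanked places in turn. The chaining limit bounds that distance by construction. Counting Ldb1 sites within 500 or 2000 bp as near gave 15.2 and 10.1 at Ldb1-flanked places. A window of 100 bp gave folds of 5.81 (distant) and 14.5 (flanked), a rise over the flank of 5.63 and 4.31% of distant places with 9 tags. A window of 500 bp gave 2.89 at distant places, a rise of 2.97 and 74.9%. With 1 tag per position the fold was 9.82 at Ldb1-flanked places and the rise 4.33 at Ldb1-distant ones. Without places of more than 10 IgG tags (4 distant, 3 flanked) the flanked fold was 14.3. The upper 50% of the Tal1 and Gata1 lists left 57 places, 46 of them Ldb1-distant, with a flanked fold of 19.1. Without the 5 strongest Ldb1-flanked places it was 6.94. Of 46 Tal1 and Gata1 folds, 24 moved, 14 of them upward. No paired analysis was possible because there are no replicates, and none could be left out. Depth limits single places: a fold of 4.67 for Ldb1 that rested on 1 IgG tag had counting limits of 0.462 and 230.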
